A study of Homo sapiens with 9 samples.

Results

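The genes described here are HIF1A, which encodes the oxygen-regulated subunit of hypoxia-inducible factor 1, and 9 genes that this factor is known to induce: CA9, ADM, VEGFA, NDRG1, BNIP3, EGLN3, ANKRD37, P4HA1 and KDM3A. They were taken by symbol from the deposited gene table, in which each of the 10 symbols occurs once among 60612 genes. All 10 passed the filter on low counts, which left 20157 genes. RNA came from HepG2 cells, an established line from a human hepatocellular tumour that still makes hepatocyte proteins, exposed to 50 µM PQY09 (Butyrolactone I), to 50 µM PQY23_1, a derivative, or to 0.1% DMSO, the solvent, with 3 libraries per group. Both are described as butenolides whose targets the study set out to find, and no structure of PQY23_1, oxygen level or exposure time was given in the sources used here. Whether the compound wells also held DMSO is likewise not given, and a single cell line was used.

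HIF is a dimer of an alpha subunit (HIF1A, EPAS1 or HIF3A) and ARNT. While oxygen is present, prolyl hydroxylases of the EGLN family mark the alpha subunit for destruction by the VHL ubiquitin ligase, and HIF1AN hydroxylates an asparagine that then blocks coactivators. When oxygen or iron is short the alpha subunit accumulates as protein, enters the nucleus and binds the core motif ACGTG or GCGTG. HIF1A mRNA is therefore a poor measure of HIF activity, which is usually read from its targets, and no protein was measured here.

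The libraries held 85050531 to 107538450 deposited counts. Expression is given as CPM, each count relative to its library's total, after scaling by trimmed mean of M-values, and differences as log2 fold changes with their SE from edgeR's quasi-likelihood test. A gene is called when its Benjamini-Hochberg adjusted p over all genes tested is below 0.05. The 8 hepatocyte markers summed to 21221 to 22413 CPM under DMSO, 23412 to 24473 under PQY09 and 19762 to 21273 under PQY23_1. The 8 markers of leukocytes, macrophages, endothelium and fibroblasts summed to 35.1 to 42.6 CPM under DMSO, 33.2 to 41.8 under PQY09 and 46.3 to 59.8 under PQY23_1, mostly CD68, and the leukocyte marker PTPRC and the fibroblast marker DCN were at or near 0. Mitochondrially encoded genes took 12.6% to 14.1% of counts under DMSO, 12.5% to 14.6% under PQY09 and 14.5% to 16.4% under PQY23_1. Leaving these genes out of the library sizes gave 585 called genes under PQY09 in place of 574. Under PQY23_1 it gave 508 in place of 514. Of the genes described here, 3 were then called under PQY09 in place of 2, and still none under PQY23_1. Any part of the mitochondrial shift in the results beyond library size was not tested.

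The windows of 250 bases before the annotated start sites show where the HIF core letters lie in the members that moved most. RefSeq (GRCh38.p14) promoters were found for 8 of the 10 members, all but VEGFA and NDRG1, and were searched on both strands for ACGTG and GCGTG. A match stood before at least 1 start of 7 of these 8 members. By window, 8 of their 10 hold a match, beside 43.2% of all 35116 promoter windows. Those of 4 members are printed 5′ to 3′ on the gene's strand, chosen because CA9, EGLN3, ADM and ANKRD37 gave the largest differences between groups, with matched letters in capitals (CACGT is ACGTG on the other strand).
CA9, chr9:35673678-35673927, plus strand: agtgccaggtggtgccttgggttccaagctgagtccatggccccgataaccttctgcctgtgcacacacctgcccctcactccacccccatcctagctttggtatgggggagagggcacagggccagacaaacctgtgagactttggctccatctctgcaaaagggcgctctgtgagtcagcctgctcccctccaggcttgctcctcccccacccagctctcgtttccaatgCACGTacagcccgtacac
EGLN3, chr14:33951075-33951324, minus strand: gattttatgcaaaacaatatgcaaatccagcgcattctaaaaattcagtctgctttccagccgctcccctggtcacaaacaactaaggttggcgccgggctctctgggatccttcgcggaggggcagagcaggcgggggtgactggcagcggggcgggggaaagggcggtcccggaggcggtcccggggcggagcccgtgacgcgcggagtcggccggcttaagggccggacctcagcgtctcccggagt
ADM, chr11:10304823-10305072, plus strand: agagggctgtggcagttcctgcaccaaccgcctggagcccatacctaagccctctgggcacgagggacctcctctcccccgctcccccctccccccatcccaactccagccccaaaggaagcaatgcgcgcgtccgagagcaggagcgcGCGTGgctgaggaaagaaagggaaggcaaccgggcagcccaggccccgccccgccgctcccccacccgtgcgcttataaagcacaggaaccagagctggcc
ANKRD37, chr4:185396591-185396840, plus strand: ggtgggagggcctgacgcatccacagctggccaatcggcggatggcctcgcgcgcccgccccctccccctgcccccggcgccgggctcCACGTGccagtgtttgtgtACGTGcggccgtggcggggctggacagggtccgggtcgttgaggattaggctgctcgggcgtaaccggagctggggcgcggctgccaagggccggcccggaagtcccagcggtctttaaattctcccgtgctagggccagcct

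CA9 had 1 match, an ACGTG on the other strand at -18 to -14 from the start, and 18.5% of all windows hold ACGTG. ADM had 1 GCGTG at -101 to -97, a motif found in 32.2% of all windows. ANKRD37 had 3 matches, all ACGTG, and 7.76% of all windows have at least 3. A pair of these overlap in CACGTG (6.34% of all windows), which is also the E-box letters read by other factors. The EGLN3 window held neither motif. BNIP3 had 6 matches between -143 and -100, P4HA1 an ACGTG at -86 to -82, and the first of the HIF1A starts a GCGTG at -204 to -200. A match describes letters only, and no binding was measured in these cells.

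**Figure D1:**
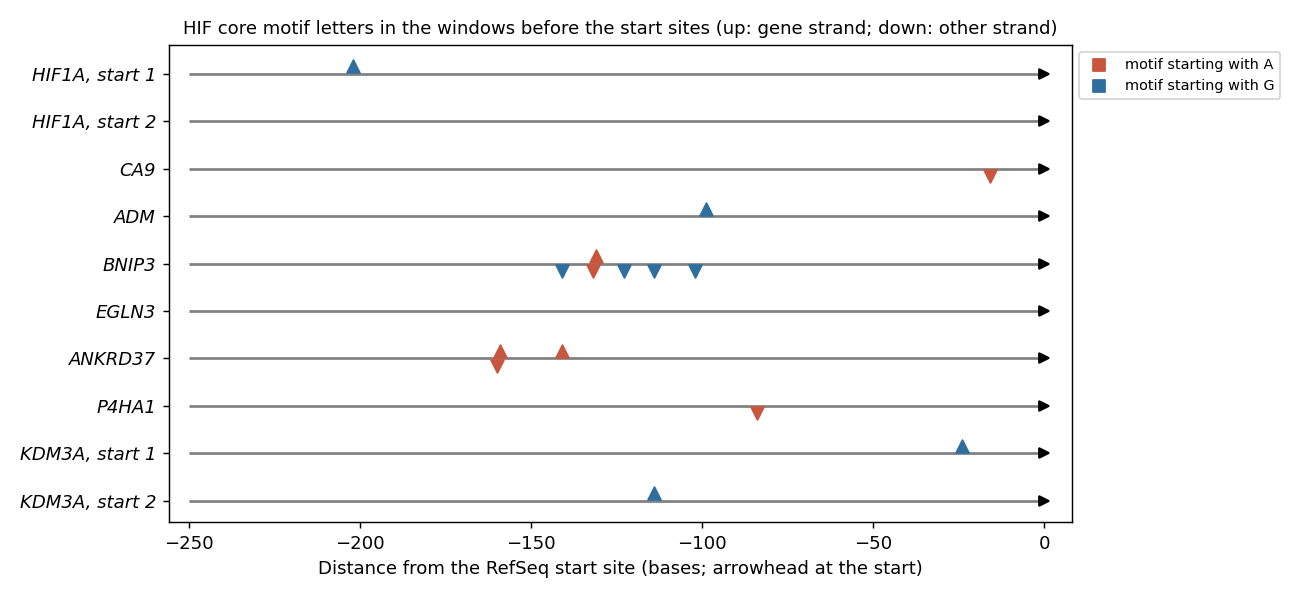
Positions of the HIF core letters in the windows before the RefSeq start sites of 8 members (x axis: bases from the start; triangles up: match on the gene's strand, down: on the other strand; colours: motif starting with A or G). The match of CA9 lies closest to the start, BNIP3 has the most, and EGLN3 and the second HIF1A start have none.

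Per length, the members spanned a wide range of levels under DMSO. HIF1A stood highest at 46.9 ± 3.78 FPKM (the deposited values scaled to gene length, SD, n = 3), followed by P4HA1 at 21.1 ± 3.63 and BNIP3 at 20.3 ± 1.22, whose libraries overlapped each other. CA9 (5.83 ± 0.554 FPKM) and VEGFA (5.38 ± 0.277) overlapped as well, as did KDM3A (3.59 ± 0.141) with NDRG1 (3.34 ± 0.135) and NDRG1 with ADM (3.26 ± 0.281). ANKRD37 (0.709 ± 0.1) and EGLN3 (0.241 ± 0.0121) were lowest and overlapped neither each other nor the rest. Under PQY09 CA9 moved from rank 4 to rank 8, at 1.38 ± 0.756 FPKM, and ADM from rank 8 to rank 5, at 5.15 ± 0.425 FPKM. There the libraries of CA9 overlapped those of ANKRD37, and the libraries of ADM overlapped those of VEGFA. Under PQY23_1 CA9 was also at rank 8 (2.28 ± 0.527 FPKM), where its libraries overlapped those of NDRG1. ADM was then at rank 4 (4.45 ± 0.286 FPKM), where its libraries overlapped those of VEGFA. EGLN3 stayed at rank 10 in all groups.

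PQY09 against DMSO asks which of these transcripts the parent compound changed. CA9 fell 4.26-fold, and ADM rose 1.56-fold. EGLN3 was 2.03-fold lower and just missed the threshold, while HIF1A itself and the other 6 targets were not called. Of the 10 members 1 was called higher and 1 lower, beside 1.78% and 1.07% of all 20157 genes tested, and 2.85% in either direction. At an unadjusted p below 0.05 there were 4 members, beside 15.6% of all genes tested. DESeq2 called 3 (CA9, EGLN3 and ADM), beside 7.26% of all genes, and limma on log2(FPKM + 1) called 2 of the 8 members it tested, beside 6.17%. The median log2 change of the members was -0.11, with 9 of 10 below 0, and the median over all genes tested was 0.00. The libraries of both groups did not overlap for 5 members (CA9, EGLN3, NDRG1 and BNIP3 lower, ADM higher), and for 24.4% of all genes tested (12.9% higher and 11.5% lower). For BNIP3 the closest libraries stood at 120.9 and 121.3 CPM, and its deposited FPKM values overlapped.

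The derivative was set against the same DMSO libraries. None of the 10 members was called by edgeR, beside 2.55% of all genes tested in either direction (1.51% higher and 1.04% lower). Over all genes 305 were called higher and 209 lower, and limma on log2(TPM + 1) turned that split to 155 and 591. At an unadjusted p below 0.05 there were 5 members (CA9, ADM, VEGFA, P4HA1 and ANKRD37), beside 16.3% of all genes tested. DESeq2 called 4 of them, CA9, P4HA1 and VEGFA lower and ADM higher, beside 7.34% of all genes. Limma on log2(FPKM + 1) called 2, CA9 lower and ADM higher, beside 6.1% of the 11646 genes it tested. The median log2 change was -0.14, with 7 of 10 below 0. The libraries did not overlap for 7 members, 2 higher (ADM and ANKRD37) and 5 lower (CA9, VEGFA, EGLN3, P4HA1 and KDM3A), and for 22.5% of all genes tested (11.8% higher and 10.7% lower). Both comparisons share the DMSO libraries, and in bulk RNA a change in all cells and one in some of the cells cannot be told apart.

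**Figure D2:**
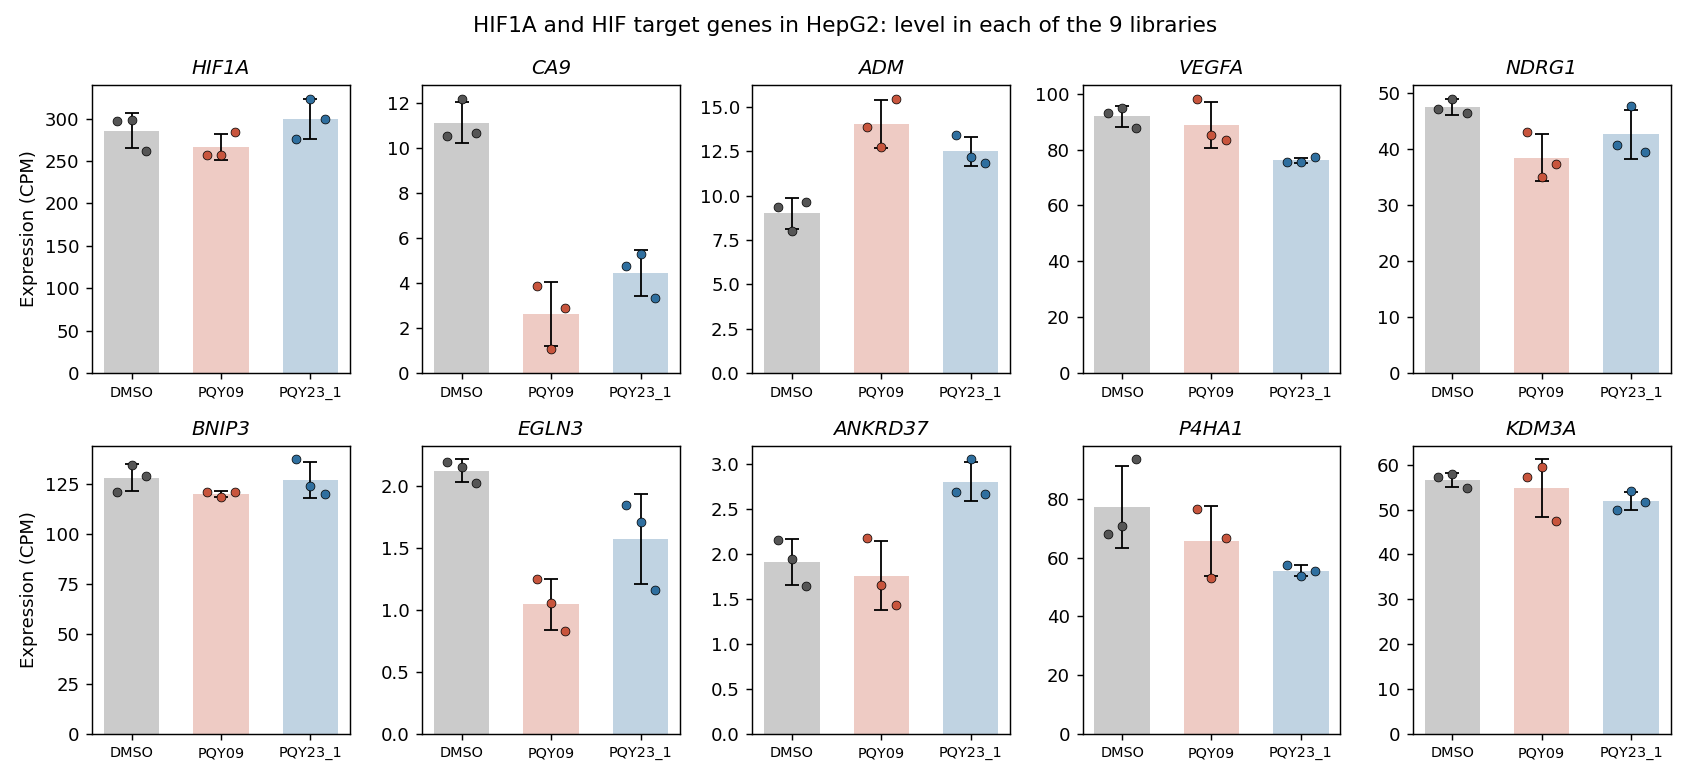
Level of HIF1A and 9 HIF targets in CPM (y axis, from 0) in each library (points) of the DMSO, PQY09 and PQY23_1 groups, with the mean (bar) and SD of 3 libraries (line). All CA9 libraries of both compounds lie below, and all ADM libraries above, the DMSO libraries, while HIF1A overlaps across the groups.

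HIF1A (chromosome 14, 61695513 to 61748258, plus strand) was at 297, 298 and 262 CPM under DMSO. It was at 257, 257 and 284 CPM under PQY09 and at 275, 323 and 300 CPM under PQY23_1. The libraries of the 3 groups overlapped. The log2 change was -0.10 ± 0.08 under PQY09 (edgeR adjusted p = 0.626; 95% interval -0.29 to 0.08) and 0.07 ± 0.08 under PQY23_1 (0.762; -0.11 to 0.25).

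CA9 encodes carbonic anhydrase 9, a membrane enzyme that hydrates carbon dioxide outside the cell and is a standard marker of HIF activity (chromosome 9, 35673918 to 35681159, plus strand). It was at 10.5, 12.2 and 10.7 CPM in the DMSO libraries, at 3.87, 1.06 and 2.89 CPM under PQY09, and at 4.73, 5.26 and 3.31 CPM under PQY23_1. Each compound library lay below each DMSO library, and PQY09 replicate 2 was lowest. The spread grew as the level fell, with a coefficient of variation of 8.3% for the DMSO libraries, 54.7% for PQY09 and 22.8% for PQY23_1.

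The CA9 log2 change under PQY09 was -2.09 ± 0.41, or 4.26-fold lower (edgeR adjusted p = 0.0325). Under PQY23_1 it was -1.33 ± 0.40, or 2.51-fold lower, and was not called (adjusted p = 0.133; 95% interval -2.22 to -0.43). The PQY09 call was lost without DMSO replicate 1 (adjusted p = 0.0769), 2 (0.104) or 3 (0.0863), PQY09 replicate 3 (0.102) or PQY23_1 replicate 2 (0.0537), and when only these groups were fitted (0.0711), with a log2 change between -2.49 and -1.72 over all 9 leave-outs. The PQY23_1 change was called in 5 of 21 alternatives. These were the fits without PQY09 replicate 2 (0.0225) and of only these groups (0.0328), and DESeq2 (0.00998). The others were limma on log2(FPKM + 1) (0.0375) and on log2(TPM + 1) (0.04525). CA9 shares 643 of its 1670 exonic bases (38.5%, GENCODE 29) with ARHGEF39, an exchange factor gene on the other strand, and no strand setting was given, so reads there cannot be told apart. ARHGEF39 stood at 10.995 ± 1.63 CPM under DMSO, 15.2 ± 3.04 under PQY09 and 11.5 ± 2.01 under PQY23_1, and was not called in either comparison (adjusted p = 0.277 and 0.918).

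EGLN3 encodes an oxygen-sensing prolyl hydroxylase that HIF induces as feedback (chromosome 14, 33924227 to 34222953, minus strand). It was at 2.20, 2.15 and 2.02 CPM under DMSO, at 1.25, 1.05 and 0.831 CPM under PQY09, and at 1.85, 1.71 and 1.16 CPM under PQY23_1. All compound libraries lay below all DMSO libraries, and PQY23_1 replicate 3 was within the PQY09 range. It rests on 88 to 236 deposited counts per library. The log2 change under PQY09 was -1.02 ± 0.22 (2.03-fold lower; edgeR adjusted p = 0.0511; 95% interval -1.53 to -0.51). It was called in 8 of the 18 alternatives that tested it, among them DESeq2 (adjusted p = 0.00157), RLE size factors (0.0482) and the fit without PQY23_1 replicate 3 (0.0401). Under PQY23_1 it was -0.43 ± 0.22 (adjusted p = 0.383).

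ADM encodes adrenomedullin, a secreted peptide that widens blood vessels (chromosome 11, 10305073 to 10307397, plus strand). It was at 9.37, 8.002 and 9.65 CPM under DMSO, at 13.9, 12.75 and 15.5 CPM under PQY09, and at 13.4, 12.2 and 11.9 CPM under PQY23_1. All 6 compound libraries lay above all 3 DMSO libraries. The log2 change was 0.64 ± 0.11 under PQY09, or 1.56-fold higher (edgeR adjusted p = 0.0215). Under PQY23_1 it was 0.47 ± 0.11, or 1.39-fold higher, and was not called (adjusted p = 0.075; 95% interval 0.21 to 0.73), whereas DESeq2 (0.00518) and limma on log2(FPKM + 1) (0.0342) called it. The PQY09 call was lost without DMSO replicate 1 (adjusted p = 0.0605), 2 (0.0881) or 3 (0.0576), without PQY09 replicate 1 (0.0803) or 3 (0.0859), and when only these groups were fitted (0.0508), with a log2 change between 0.56 and 0.70.

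VEGFA, the growth factor that drives the sprouting of blood vessels (chromosome 6, 43770184 to 43786487), was at 93.0, 95.01 and 87.8 CPM under DMSO. It was at 98.3, 85.1 and 83.3 CPM under PQY09, which overlapped DMSO, and at 75.6, 75.5 and 77.3 CPM under PQY23_1, which did not. Its log2 change was -0.05 ± 0.07 under PQY09 (edgeR adjusted p = 0.831) and -0.27 ± 0.07 under PQY23_1 (0.0979). DESeq2 called the latter (adjusted p = 0.0192).

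P4HA1 encodes the catalytic subunit of the prolyl hydroxylase that matures collagen (chromosome 10, 73007217 to 73096974). It was at 67.9, 70.6 and 93.4 CPM under DMSO, at 76.7, 53.0 and 66.8 CPM under PQY09, and at 57.3, 53.6 and 55.5 CPM under PQY23_1. DMSO replicate 3 was high, and the PQY23_1 libraries lay close together below all DMSO libraries. The log2 change was -0.24 ± 0.15 under PQY09 (edgeR adjusted p = 0.532) and -0.48 ± 0.15 under PQY23_1 (0.161), which DESeq2 called (0.0449).

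ANKRD37, an ankyrin repeat protein, was the only member whose PQY23_1 libraries lay above those of both other groups (chromosome 4, 185396021 to 185400241). It was at 2.15, 1.94 and 1.64 CPM under DMSO, at 2.18, 1.66 and 1.44 CPM under PQY09, and at 2.69, 3.05 and 2.67 CPM under PQY23_1. The log2 change was 0.55 ± 0.19 under PQY23_1 (1.47-fold; edgeR adjusted p = 0.192; 95% interval 0.12 to 0.99) and -0.12 ± 0.19 under PQY09 (0.848). It rests on 152 to 265 counts per library. ANKRD37 shares 909 of its 2580 exonic bases (35.2%) with UFSP2 on the other strand, which stood at 19.7 ± 0.695 CPM under DMSO, 18.4 ± 0.703 under PQY09 and 19.0 ± 0.709 under PQY23_1.

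NDRG1, a stress-responsive gene linked to growth arrest (chromosome 8, 133237175 to 133302022), was at 47.2, 49.1 and 46.4 CPM under DMSO. It was at 43.1, 35.0 and 37.3 CPM under PQY09, below all DMSO libraries, and at 40.8, 47.7 and 39.5 CPM under PQY23_1, which overlapped them. Its log2 change was -0.31 ± 0.10 under PQY09 (edgeR adjusted p = 0.163) and -0.16 ± 0.10 under PQY23_1 (0.493), and no alternative called either.

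BNIP3, a mitochondrial outer membrane protein that recruits the autophagy machinery (chromosome 10, 131966455 to 131982013), was at 121.3, 134 and 129 CPM under DMSO. It was at 120.9, 118 and 120.9 CPM under PQY09 and at 137, 124 and 120 CPM under PQY23_1, and its log2 changes were -0.10 ± 0.07 and -0.01 ± 0.07 (edgeR adjusted p = 0.575 and 0.957). The PQY09 libraries thus lay just below those of DMSO in CPM. In FPKM they overlapped (19.1 to 19.5 against 19.2 to 21.6). BNIP3 has processed pseudogenes that can share its reads, the most counted of which, BNIP3P1, averaged 34.2 counts per library. KDM3A, a histone H3 lysine demethylase (chromosome 2, 86440647 to 86492716), was at 57.2, 57.9 and 54.9 CPM under DMSO, at 57.3, 59.6 and 47.5 CPM under PQY09 and at 50.0, 54.1 and 51.6 CPM under PQY23_1. Its log2 changes were -0.05 ± 0.09 and -0.13 ± 0.09 (edgeR adjusted p = 0.867 and 0.545). Both genes stayed within narrow ranges: the 95% intervals of BNIP3 ran from -0.25 to 0.06 under PQY09 and from -0.16 to 0.14 under PQY23_1, those of KDM3A from -0.25 to 0.15 and from -0.32 to 0.07.

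**Figure D3:**
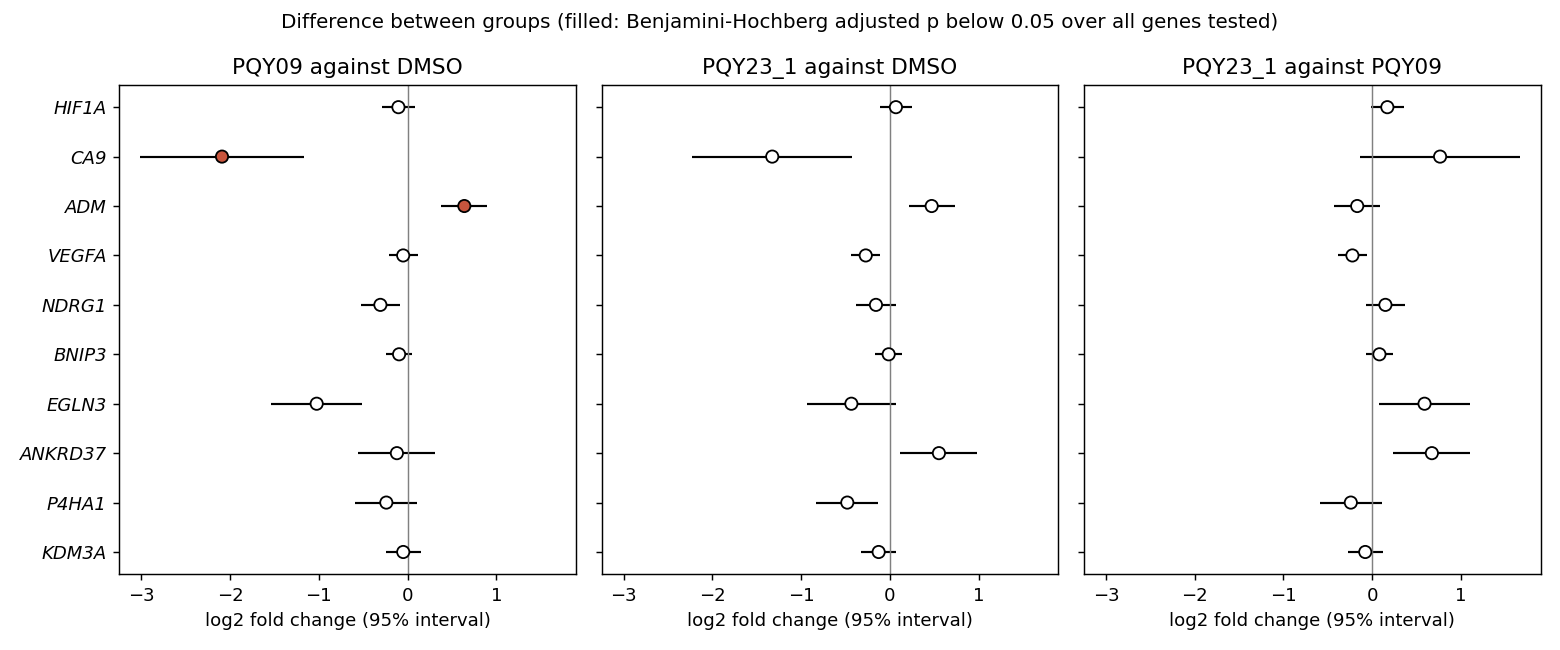
Log2 fold change (x axis) of each member with its 95% interval (line) in the 3 comparisons; filled points have an adjusted p below 0.05 over all 20157 genes tested. CA9 at -2.09 and ADM at 0.64 under PQY09 are the filled points, and no member is filled in the other comparisons.

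The parent compound and the derivative were compared directly at the same dose of 50 µM, a single pair of compounds, with p-values adjusted over all genes tested. No member was called by edgeR, beside 2.22% of all genes tested (1.22% higher and 1% lower; 246 and 202 genes, against 243 and 355 with limma on log2(FPKM + 1) and 149 and 794 on log2(TPM + 1)). At an unadjusted p below 0.05 there were 3 members (VEGFA, EGLN3 and ANKRD37), beside 14.7% of all genes tested. DESeq2 called 1, ANKRD37, beside 6.37% of all genes, and 1 of 10 members is near that share. ANKRD37 was 1.59-fold higher under PQY23_1 than under PQY09 (log2 0.67 ± 0.19, edgeR adjusted p = 0.128; 95% interval 0.24 to 1.11; DESeq2 0.0296), and the libraries did not overlap. VEGFA was lower under PQY23_1 in every library (log2 -0.22 ± 0.07, adjusted p = 0.183; 95% interval -0.39 to -0.06). The libraries of these compounds did not overlap for these 2 members, and for 22% of all genes tested (10.8% higher and 11.2% lower). CA9 differed by 0.77 ± 0.39 with overlapping libraries (adjusted p = 0.423), and its 95% interval of -0.13 to 1.66 includes 0. EGLN3 differed by 0.59 ± 0.22 (adjusted p = 0.258; 95% interval 0.08 to 1.10), ADM by -0.17 ± 0.11 (0.559; -0.43 to 0.09) and HIF1A by 0.17 ± 0.08 (0.378; -0.01 to 0.35).

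Among the genes of HIF subunits and oxygen sensing 1 was called. Of 15 genes, 14 were tested, and HIF3A was too low. Under PQY09 none was called higher and 1 lower, HIF1AN, from 71.9 ± 2.44 to 59.1 ± 2.15 CPM (log2 -0.28 ± 0.06, edgeR adjusted p = 0.044), beside 1.07% of all genes tested called lower. This call held only without PQY23_1 replicate 1 (0.0405) among the 9 leave-outs, and the other 8 gave 0.0573 to 0.152. Limma on log2(FPKM + 1) did not call it (0.062), and DESeq2 called 3 genes of the list, 1 higher and 2 lower, beside 7.26% of all genes. Under PQY23_1 edgeR called none of the 14 (2.55% of all genes tested), and 4 had an unadjusted p below 0.05 (16.3%). DESeq2 called 3 (7.34%) and limma on log2(FPKM + 1) called 2 (6.1%). The list's median log2 change was -0.14 under PQY09 and -0.06 under PQY23_1. EPAS1, the alpha subunit of HIF2, was at 243 ± 7.86 CPM under DMSO, 206 ± 63.9 under PQY09 and 210.2 ± 18.2 under PQY23_1. Its PQY09 libraries were at 244, 241 and 132 CPM, and only replicate 3 lay below the DMSO libraries. ARNT was at 33.95 ± 1.76, 32.4 ± 2.77 and 34.6 ± 2.86 CPM. The main prolyl hydroxylase EGLN1 was at 66.8 ± 2.35, 58.5 ± 0.466 and 66.1 ± 1.79 CPM (adjusted p = 0.106 under PQY09), and VHL at 38.5 ± 2.25, 35.2 ± 0.813 and 32.3 ± 0.733 CPM (adjusted p = 0.0852 under PQY23_1). EGLN1 under PQY09 was called in 1 of 21 alternatives, DESeq2 (0.00792). VHL under PQY23_1 was called in 5 of 21, among them DESeq2 (0.00554).

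Of 28 other HIF targets outside glycolysis, all tested, 3 rose and 3 fell under PQY09, and 1 rose and 3 fell under PQY23_1, with medians of 0.00 and -0.02. Over all genes tested 1.78% rose and 1.07% fell under PQY09, and 1.51% and 1.04% under PQY23_1. LOX, the lysyl oxidase that crosslinks collagen, fell from 50.3 ± 4.50 to 22.3 ± 1.53 CPM under PQY09 (log2 -1.18 ± 0.10, edgeR adjusted p = 0.000755) and to 30.5 ± 3.22 CPM under PQY23_1 (-0.72 ± 0.10, 0.0111). The mitophagy receptor BNIP3L, a relative of BNIP3, fell by 0.60 ± 0.08 under PQY09 (0.00745) and by 0.57 ± 0.08 under PQY23_1 (0.0124). STC2, the secreted stanniocalcin 2, fell by 0.45 ± 0.07 (0.00993) and by 0.57 ± 0.07 (0.00424).

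Against these falls, BHLHE40, a transcriptional repressor, rose from 37.1 ± 1.65 to 59.0 ± 4.82 CPM under PQY09 (log2 0.67 ± 0.08, edgeR adjusted p = 0.00332) and to 57.2 ± 3.26 CPM under PQY23_1 (0.62 ± 0.08, 0.00673). HMOX1, the heme oxygenase that NRF2 also induces, rose under PQY09 (0.40 ± 0.06, 0.0143) and stood at -0.09 ± 0.06 under PQY23_1 (0.583). EPO, erythropoietin, rose from 4.31 ± 0.145 to 6.57 ± 0.0533 CPM under PQY09 (0.61 ± 0.10, 0.0185) and was at 5.57 ± 0.446 CPM under PQY23_1 (0.37 ± 0.10, 0.113). Between the compounds, HMOX1 was lower under PQY23_1 (-0.49 ± 0.06, 0.00638), in all 9 leave-outs. The calls of BHLHE40 and STC2 against DMSO were kept in all 9 leave-outs under both compounds, as were those of LOX and BNIP3L under PQY09. Under PQY23_1 LOX was lost without DMSO replicate 2 (0.0538), and BNIP3L without DMSO replicate 2 (0.0599) or 3 (0.053) or PQY23_1 replicate 3 (0.0563), so that 2 of the 4 calls remained without DMSO replicate 2. HMOX1 was lost under PQY09 without DMSO replicate 2 (0.07) or 3 (0.0619) or PQY09 replicate 1 (0.0529) or 3 (0.0532), and EPO when any 1 DMSO or PQY09 library was left out (0.053 to 0.0811).

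Of 21 glucose uptake and glycolysis genes that HIF induces, all tested, 3 fell and none rose under PQY09 (median log2 -0.24), and 1 rose and 1 fell under PQY23_1 (median 0.04). Over all genes tested 1.07% fell and 1.78% rose under PQY09, and 1.04% and 1.51% under PQY23_1. The glucose transporter SLC2A1 fell from 168 ± 35.6 to 80.9 ± 11.9 CPM under PQY09 (log2 -1.06 ± 0.18, edgeR adjusted p = 0.0171) and was at 127 ± 18.1 CPM under PQY23_1 (-0.41 ± 0.18, 0.296). SLC2A3, a second glucose transporter, was at 162 ± 10.1 CPM under DMSO, 96.4 ± 6.003 under PQY09 and 69.8 ± 6.61 under PQY23_1, and was the gene called under both. PGK1, phosphoglycerate kinase, fell from 457 ± 20.2 to 380 ± 11.4 CPM under PQY09 (-0.27 ± 0.06, 0.041). PFKP, a phosphofructokinase, rose under PQY23_1 from 9.20 ± 0.186 to 15.4 ± 1.21 CPM (0.74 ± 0.11, 0.0125) and was at 8.06 ± 0.934 CPM under PQY09 (-0.19 ± 0.11, 0.468).

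Directly between the compounds, PFKP (0.93 ± 0.11, edgeR adjusted p = 0.00411) and the pyruvate kinase PKM (0.39 ± 0.07, 0.0321) were higher and SLC2A3 lower (-0.47 ± 0.08, 0.0279) under PQY23_1 than under PQY09. In the leave-outs, SLC2A3 against DMSO and PFKP between the compounds were always kept. PGK1 was kept in 1 of 9 (0.0297 to 0.152 over the 9), PKM in 2 (0.0267 to 0.138) and SLC2A3 between the compounds in 3 (0.0212 to 0.116). SLC2A1 was lost without DMSO replicate 1 (0.0607) or 3 (0.0659) or PQY09 replicate 1 (0.08) or 3 (0.0744), each of which left 1 of the 3 calls under PQY09, and PFKP under PQY23_1 without DMSO replicate 1 (0.0507), 2 (0.0596) or 3 (0.0532). DESeq2 called 9 of the 21 under PQY09, 8 lower and 1 higher, and 5 under PQY23_1, 2 lower and 3 higher. DESeq2 also called more of all genes, 7.26% and 7.34% against 2.85% and 2.55% with edgeR.

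**Figure D4:**
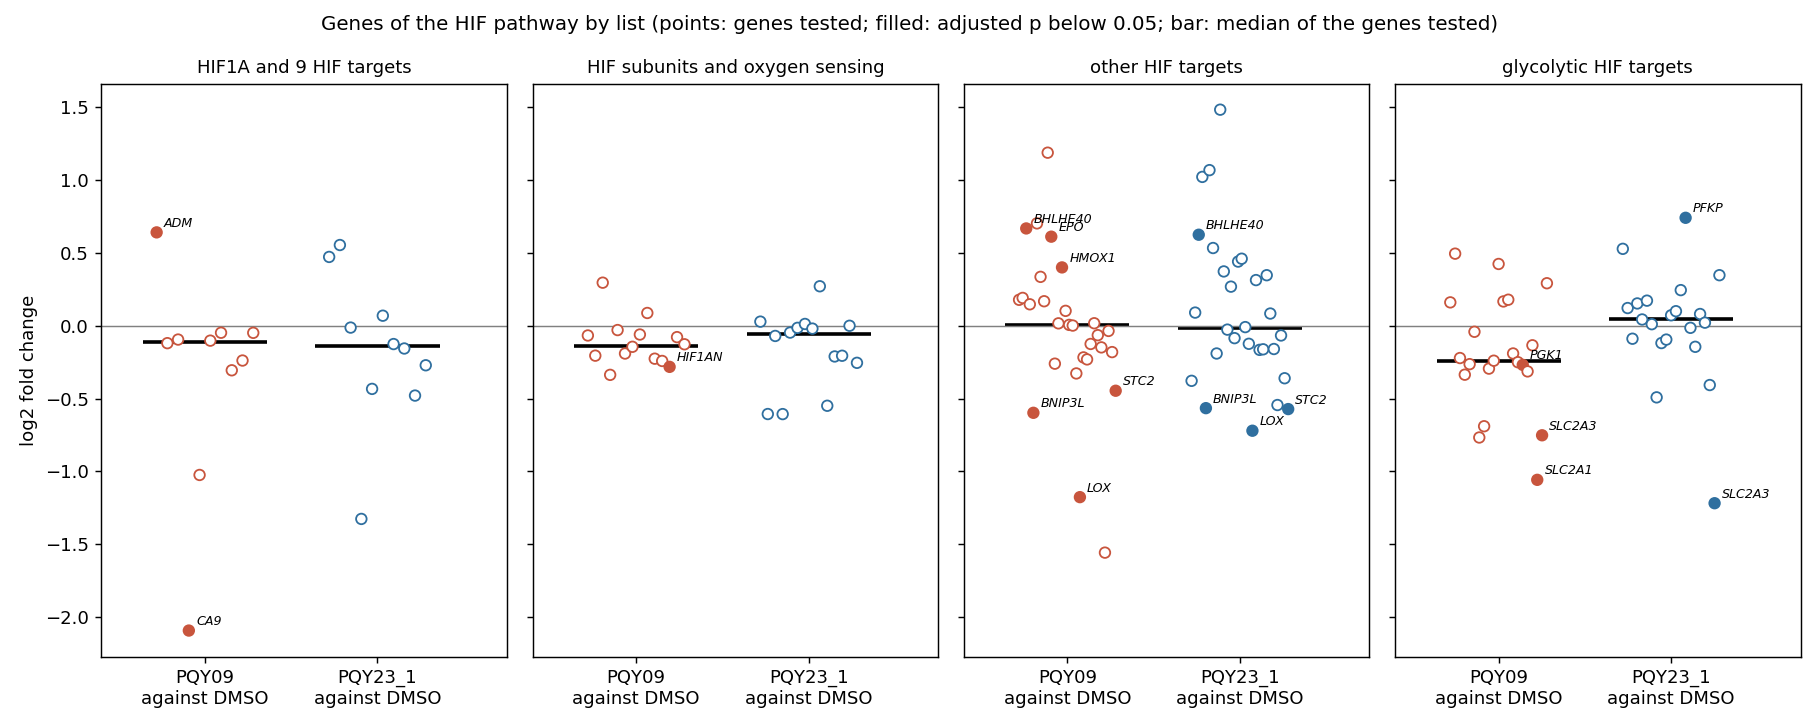
Log2 fold change (y axis) of the genes tested in the member list and 3 further HIF lists under PQY09 and PQY23_1 against the same DMSO libraries (points: genes; filled and named: adjusted p below 0.05; bar: median). Under PQY09 the glycolytic list has a median of -0.24 with SLC2A1, SLC2A3 and PGK1 filled, while the other lists hold filled genes on both sides of 0 or 1 filled gene.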

How the data were processed

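RNA of HepG2 cells was measured in 9 libraries, 3 per group. The submitters' processing notes name hg38, StringTie 1.3.4d, HISAT2 2.0.4, cutadapt 1.9, DESeq2 and edgeR, without roles. No source used here gives the annotation release or the strand setting. The authors deposited 1 table with an estimated count (expected count) and an FPKM value per gene and library. The deposited counts are whole numbers whose low values pile up at 4 (10696 values, against 4024 at 3 and 2277 at 5), so the number of counts per fragment is unknown. The deposited FPKM values, scaled by the authors to gene length and library, hold 1e-04 where the count is 0.

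Counts, rounded to whole numbers, were filtered with filterByExpr (minimum count 10, minimum total 15), scaled by TMM and fitted over all 9 libraries in edgeR 4.0.16 (R 4.3.3) with 1 mean for each group and no further term. The quasi-likelihood F test was adjusted by Benjamini-Hochberg over 20157 genes. The SE is the log2 change divided by the square root of F. The test was tried on simulated data. Named list genes are those called in any comparison (at most 6 per list, by lowest p), plus EPAS1, ARNT, VHL, EGLN1 and HIF1AN whether called or not. No label ties the libraries to independent cultures; the spread behind each p-value may be technical. The members and lists were chosen with earlier results of these data known. Alternatives used DESeq2 1.42.0, limma 3.58.1 on log2 FPKM or TPM, other scalings and filters, counts divided by 4, a replicate block and the leaving out of each library. Coordinates are those of the deposited table (hg38, from 1) or, for promoters, RefSeq's. A gene of the lists is not reported here and was taken out of the list counts.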

Additional observations from a re-analysis of the deposited data

How the results depend on the processing

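Member calls were few and sat near the threshold. Under PQY09 the count of 2 fell to 0 when only the groups compared were fitted, and ranged from 0 to 3 over the 9 leave-outs. With DESeq2, RLE size factors, upper quartile scaling or counts divided by 4 it rose to 3, by EGLN3. The same held for library sizes without mitochondrially encoded genes and for the filter of at least 1 CPM in 3 libraries. Under PQY23_1 the count of 0 became 4 with DESeq2, 1 with only the groups compared, 2 with limma on log2(FPKM + 1), 1 on log2(FPKM + 0.1) and 2 on log2(TPM + 1), and ranged from 0 to 1 over the leave-outs. Between the compounds DESeq2 gave 1 in place of 0. The counts over all genes moved as well. Over the same 9 leave-outs they ranged from 235 to 628 under PQY09, from 138 to 371 under PQY23_1 and from 222 to 397 between the compounds. Under PQY23_1, 514 genes were called by edgeR, 1480 by DESeq2, 224 with only the groups compared, and 710, 696 and 746 by limma in the order above. Under PQY09, 574 became 1464 with DESeq2 and 459 with only the groups compared, and between the compounds 448 became 1285 with DESeq2. Under PQY09 it was also 581 (RLE), 563 (upper quartile) and 585 (no mitochondrially encoded genes). The 1 CPM filter gave 751 of 13947 genes tested, and counts divided by 4 gave 702 of 16030. Of the glycolytic list, 7 and 6 genes were called in these settings, in place of 3. Under PQY23_1 counts divided by 4 gave 0 members and 586 genes. The 3 limma alternatives could not test EGLN3 and ANKRD37, which reach 1 FPKM in fewer than 3 libraries. For the members' log2 changes, 571 values under alternatives kept their direction and side of the threshold, 13 lost the call, 20 gained it and 8 changed sign. For the named list genes these were 899, 70, 21 and 18.

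TPM moved the median over all genes to -0.112 under PQY23_1 and to -0.144 between the compounds. Under PQY23_1 HIF1A stood at -0.0654, ARNT at -0.099 and PKM at -0.0582. Between the compounds NDRG1 stood at -0.0055, BNIP3 at -0.0759, EPAS1 at -0.0752, ARNT at -0.057, HIF1AN at -0.0742, BNIP3L at -0.12 and PGK1 at -0.0333. BNIP3L was also at -0.0086 and -0.0097 on log2(FPKM + 1) and log2(FPKM + 0.1). Over the leave-outs the sign changed under PQY09 for ANKRD37 (-0.30 to 0.000899) and KDM3A (-0.12 to 0.0385). It changed under PQY23_1 for BNIP3 (-0.0737 to 0.0282), ARNT (-0.023 to 0.091), EGLN1 (-0.0409 to 0.0094) and PKM (-0.0071 to 0.14). Between the compounds it changed for EPAS1 (-0.21 to 0.17), BHLHE40 (-0.0972 to 0.0228) and BNIP3L (-0.013 to 0.0802). None of these values was called, and the cause was not tested.

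No pairing by replicate number was visible. Deviations of same-numbered libraries correlated at -0.143 to 0.0648 and those of other numbers at -0.0723 to 0.112. Not every library correlated best with its own number. These values cannot show whether same-numbered libraries were handled together. With the replicate block 2, 0 and 0 members were called in the 3 comparisons, and 342, 237 and 267 genes in place of 574, 514 and 448. ADM and EGLN3 were the 2 members called, and CA9 stood at an adjusted p of 0.0832. The low counts of EGLN3 and ANKRD37 limit what could be detected for them.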

Other observations

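Of the 45 pairs of members, 29 correlated above 0 and 16 below in log2 CPM over the 9 libraries (median r = 0.193, lowest -0.786). A mean over the members therefore joins genes that moved in opposite directions. Across the 9 libraries the mean z-score of the 10 members was highest in DMSO replicate 2 (0.572) and lowest in PQY09 replicate 2 (-0.712). PQY09 replicate 1 stood at 0.144, apart from PQY09 replicates 2 and 3 (-0.6), and the PQY23_1 libraries ran from -0.333 to 0.233. Among 10779 genes outside the lists, those whose log2 CPM followed this mean z-score most closely over the 9 libraries were NAT9 (r = 0.96), DENND1A (0.943), PIK3CB (0.915), NUDT3 (0.905) and SINHCAF (0.893), which is a description of these libraries only.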
